A study of Mus musculus with 120 samples.

Results

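ZFP295, now called ZBTB21, was overexpressed for 24 hours in mouse embryonic stem (mES) cells, and the comparison described here is between the 3 induced and the 3 uninduced arrays of its clones. These 6 arrays, of 120 in the series, are those whose titles name the ZFP295 clone, and each induced array was paired with the uninduced array that carries the same biological replicate number. The study introduced genes of human chromosome 21 one at a time to ask which of them change the mES transcriptome when their dosage rises. The array used, Affymetrix Mouse430_2, holds 45101 probe sets, groups of short oligonucleotides that mostly report 1 gene each, and 18 other genes were tested on it in the same way on 108 arrays.

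Induced cells had been kept without tetracycline (Tc) for 24 hours, and uninduced cells of the same clones were kept with Tc and sampled at 0 hours. All 6 samples were EB3 cells grown with LIF, a line derived from the male mES line E14. Both states therefore carried the same transgene, integrated by cassette exchange at the ROSA26 locus behind a Tet-off promoter that Tc keeps silent. The transgene was the human coding sequence without untranslated regions, with a 3xFLAG tag at its carboxyl terminus. The replicates were 3 separately picked puromycin-resistant clones, so that a replicate is a clone and not a repeat culture of 1 clone. According to the methods, cells to be induced were also washed, held without Tc, trypsinized and re-plated, so that the effects of the transgene, of Tc withdrawal and of re-plating cannot be told apart within this experiment.

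ZBTB21 is a transcription factor with a BTB domain at its amino terminus and zinc fingers that bind DNA. BTB domains let such factors pair with one another and recruit corepressors such as NCOR and SIN3 with their histone deacetylases, and most members of the family silence transcription. ZBTB21 is known to associate with ZBTB14, another member. In humans the gene lies on chromosome 21 and is thus present in an additional copy in Down syndrome.

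The construct is defined by the primers with which the coding sequence was amplified. They are shown because they mark both ends of what was expressed. Capitals mark the start codon in the forward primer, which follows an AscI site, and the PacI site in the reverse primer, 5′ of the last bases of the coding strand's complement.
ZFP295 cloning forward: ggcgcgccATGgagggattactgcattac
ZFP295 cloning reverse: TTAATTAAattgtgtgtttgttcgtgact
The primers listed for quantitative PCR of ZFP295 are shown because the arrays are designed for mouse transcripts and do not measure the human transgene directly.
ZFP295 q-PCR forward: cacacgccatttctctcctaag
ZFP295 q-PCR reverse: ggctgctcttctcaacaaatag

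The cells expressed mES markers at high level in both states. The 9 embryonic stem cell markers (Pou5f1, Nanog, Sox2, Zfp42, Esrrb, Klf4, Dppa5a, Utf1 and Tdgf1) had levels between 10.80 and 14.02, all above the upper quartile of 7.51 of all probe sets (levels are log2 intensities after RMA normalization throughout). Their mean level was 12.25 to 12.33 in the 3 induced arrays, and 12.18 to 12.35 in the uninduced arrays. Markers of other cells all had lower levels than these, although some lay above the median of 5.25 of all probe sets. These were 5 of 6 markers of primitive endoderm, 1 of 4 of trophectoderm and 2 of 3 of mesoderm. They also included 2 of 3 markers of neuroectoderm, 2 of 5 of fibroblasts and 2 of 4 of macrophages. Among those of primitive endoderm, trophectoderm, mesoderm, neuroectoderm, fibroblasts and macrophages, only Lama1, a laminin chain of basement membranes, and Cd68, a lysosomal protein that macrophages make in quantity, lay above the upper quartile in the mean of the 6 arrays. Col3a1 of fibroblasts and Ptprc of leukocytes were at 2.56 and 2.77, among the dimmest values of the array. Thy1, another fibroblast marker, averaged 7.31 in clone 1, 7.21 in clone 2 and 5.44 in clone 3. Pax6 of neuroectoderm had a mean of 6.28 but read 7.98 and 8.20 in clone 3, above that quartile.

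One of the clones stood apart from the other two in both states. Over all probe sets, the arrays of clone 3 correlated with those of clones 1 and 2 at 0.990 to 0.992, against 0.996 to 0.998 among the arrays of clones 1 and 2. Within a clone, the induced and the uninduced array correlated at 0.998 in all 3. The differences between induced and uninduced arrays were therefore taken within each clone, and the counts of calls are also given without clone 3. Values of single genes and of lists are mostly given for the 3 clones together.

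The endogenous mouse gene, Zbtb21 on chromosome 16, was measured by 3 probe sets, and none had a higher mean after induction. The probe set with the highest level read 7.83, 8.13 and 8.45 in induced clones 1, 2 and 3, against 8.01, 8.31 and 8.48 in the uninduced clones. It was lower in 3 of 3 clones, but the groups overlapped and the difference of -0.13 ± 0.07 on the log2 scale (SE) did not pass (limma, unadjusted p = 0.0942, adjusted p = 0.911). The 95% interval of this difference ran from -0.30 to 0.03. The second probe set averaged 6.27 ± 0.29 in induced and 6.41 ± 0.36 in uninduced clones (SD, n = 3 each), a difference of -0.14, although clone 2 was higher by 0.12. It became -0.04 without clone 1 and -0.27 without clone 2. The third averaged 4.92 ± 0.10 in induced and 4.97 ± 0.28 in uninduced clones (SD, n = 3 each), a difference of -0.06 whose sign turned to 0.03 without clone 3. In the 18 other experiments the probe set with the highest level moved by -0.19 to 0.17, and the ZFP295 value was the 5th lowest of 19. Because the mouse probe sets were not designed for the human coding sequence, these values do not check that the transgene was induced. The paper followed ZFP295 induction in the 3 clones by a q-PCR time course. It states that RNA for the arrays was taken at the time of maximal expression. Those q-PCR values are not given here.

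No probe set passed the adjusted threshold after 24 hours of ZFP295 induction. In the paired limma test, 0 of 45101 probe sets (0%) had an adjusted p below 0.05, and the smallest adjusted p was 0.911. At an unadjusted p below 0.05 there were 2372 probe sets (5.26%), 1136 higher (2.52%) and 1236 lower (2.74%). The count was also 0 without the pairing, with a test of the Cyber-t kind, with trend and robust variances, after a second normalization, with dim probe sets left out, and with each clone left out in turn. Without clone 3 the smallest adjusted p was 0.147, with 2901 probe sets at an unadjusted p below 0.05. The methods' t-test, which ignores the pairing, called 1 probe set after Benjamini-Hochberg adjustment and 1272 before it. That probe set has no gene assigned here and moved by only -0.06 at a level of 2.65, where the 3 induced arrays read 2.62 each, against 2.68 in each of the uninduced arrays.

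The differences were small as well as uncalled. No probe set differed by 1 or more on the log2 scale, and 6 differed by 0.5 or more, 5 of them higher and 1 lower in induced cells. The largest mean difference was 0.66 and the lowest -0.54. The half-width of the 95% interval of a difference had a median of 0.17 and a 95th percentile of 0.26. For 99.0% of probe sets the interval lay wholly between -0.5 and 0.5, and for all but 2 it lay wholly between -1 and 1. These intervals hold for 1 probe set at a time, and RMA compresses changes of dim transcripts.

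The 3 clones did not share a direction over the genome. The SD of the differences over all probe sets was 0.14 in clone 1, 0.17 in clone 2 and 0.16 in clone 3. Across probe sets, which are not independent replicates, the differences of clones 1 and 2 correlated at 0.08, those of clones 1 and 3 at -0.02 and those of clones 2 and 3 at -0.02. All 3 clones were higher after induction for 5121 probe sets (11.4%) and lower for 6712 (14.9%).

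The genes with the smallest unadjusted p are described next, as values of genes that did not pass. They are the 10 per direction among probe sets with 1 gene, a level above the median of 5.25 and the same direction in all 3 clones, and each has an adjusted p of 0.911. In 4 of these 20 the induced and uninduced arrays did not overlap (Zzz3, Hmgcs1, Nudt21 and Srgap3). Over all probe sets this held for 1351 on the higher side (3%) and 1373 on the lower side (3.04%), and since the genes were picked for small p nothing is read from their count. Of the 20, 12 also differed between clone 3 and both other clones, in the comparison of clones given further on. In that comparison, 4.73% of all probe sets were higher and 4.54% lower in clone 3 than in both others. Since the 20 were picked by level and small p, unlike all probe sets, nothing is read from this count either.

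**Figure D1:**
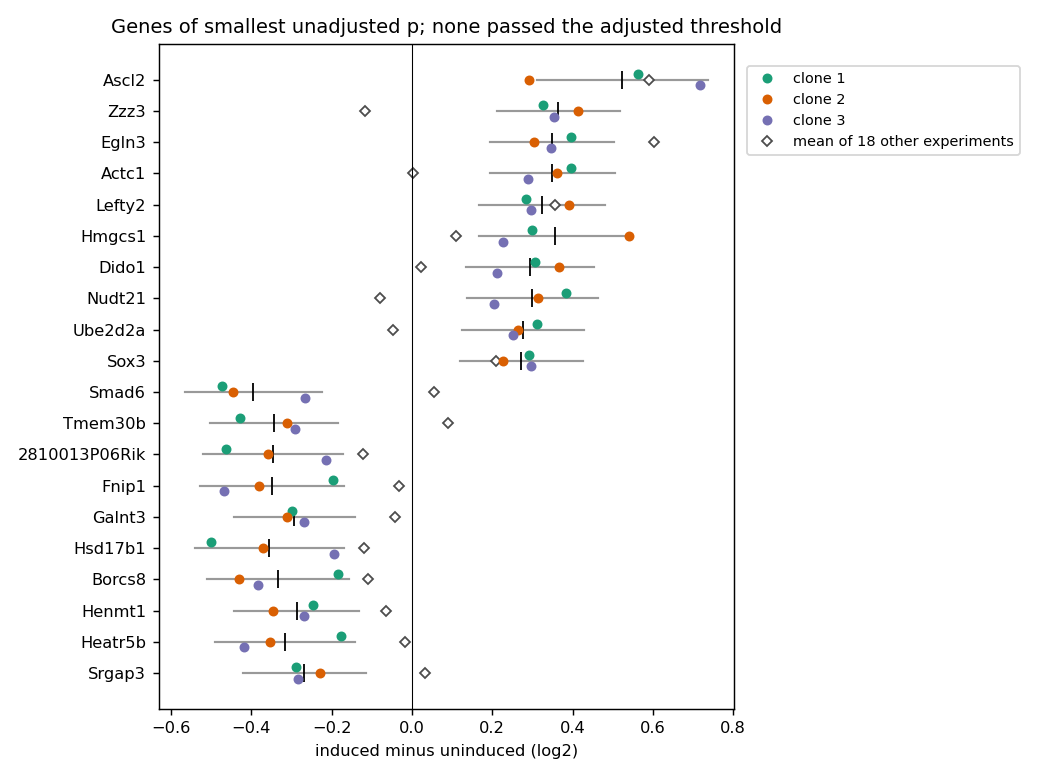
Induced-minus-uninduced differences (log2, horizontal axis) of the 20 genes with the smallest unadjusted p, 10 per direction. Dots are the 3 clones, ticks their mean, grey lines the 95% interval and open diamonds the mean difference in the 18 other experiments. The diamonds of Ascl2, Egln3, Lefty2, Sox3 and Hmgcs1 lie on the same side as the ZFP295 values, at 0.59, 0.60, 0.36, 0.21 and 0.11. Those of 2810013P06Rik, Hsd17b1 and Borcs8 do so too, at -0.12, -0.12 and -0.11, whereas those of Zzz3, Smad6 and Tmem30b lie on the opposite side.

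On the higher side, Ascl2 had the smallest p. Ascl2, a basic helix-loop-helix factor required in the trophoblast lineage, read 6.93, 6.69 and 4.71 in induced clones 1, 2 and 3, against 6.37, 6.40 and 3.99 in uninduced clones. Clone 3 was far lower than the others in both states, so that the groups overlapped although each clone was higher after induction on this probe set, the dimmest of 3. The difference was 0.52 ± 0.09 (SE, unadjusted p = 0.000585). The other probe sets of Ascl2 differed by 0.39 and 0.18, and on the brightest clone 2 was at -0.05. Lefty2, a secreted antagonist of Nodal, read 7.55, 7.44 and 6.95 in induced clones, against 7.27, 7.05 and 6.66 in uninduced clones. Sox3, a factor of neural progenitors, differed by 0.27 ± 0.07, with a second probe set at -0.02. Egln3, a prolyl hydroxylase that acts on hypoxia-inducible factors, differed by 0.35 ± 0.07 on one probe set and 0.35 ± 0.09 on the other. Ascl2, Egln3, Lefty2 and Sox3 were also higher in most other experiments, Ascl2 in 18 of 18, Egln3 in 16, Lefty2 in 13 and Sox3 in 12. The same held for Hmgcs1, described next, which was higher in 14.

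Of the other 6 genes, most had probe sets that differed from one another. Hmgcs1, the cytosolic HMG-CoA synthase of the sterol pathway, read 11.17, 11.01 and 11.22 in induced clones, against 10.87, 10.47 and 10.997 in uninduced clones. Its 4 probe sets above the median level differed by 0.20 to 0.36. Zzz3, a subunit of the ATAC histone acetyltransferase complex, read 9.21, 9.03 and 9.26 in induced clones, against 8.88, 8.62 and 8.91 in uninduced clones, a difference of 0.36 ± 0.07. Its second probe set, of a higher level (9.83), differed by only 0.04. The same disagreement held for Dido1, with 0.29 on one probe set and -0.20 on another, and for Ube2d2a, a ubiquitin-conjugating enzyme, with 0.28 on one and 0.02, -0.01, -0.25 and -0.01 on the others. Nudt21, a subunit of the cleavage factor that sets polyadenylation sites, differed by 0.30 and 0.22 on 2 probe sets and by -0.02 on the most intense one. Actc1, the cardiac alpha-actin, read 5.51, 5.40 and 5.82 in induced clones, against 5.11, 5.04 and 5.54 in uninduced clones.

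On the lower side, Smad6 had the smallest p. It encodes an inhibitory Smad that restrains BMP signaling, and read 5.01, 5.07 and 6.76 in induced clones, against 5.49, 5.52 and 7.02 in uninduced clones. The difference was -0.40 ± 0.07 (unadjusted p = 0.000814). The mean difference of Smad6 in the other experiments was 0.05. Tmem30b, a subunit of lipid flippases, read 4.75, 4.82 and 6.78 in induced clones, against 5.18, 5.13 and 7.07 in uninduced clones. For both genes clone 3 was higher than the other clones by more than 1 log2 unit in either state, so that the groups overlapped, and its own difference was the smallest of the 3, -0.27 for Smad6 and -0.29 for Tmem30b. Srgap3 read 5.51, 5.47 and 5.55 in induced clones, all below 5.80, 5.70 and 5.84 in uninduced clones. The remaining genes of this side were Galnt3, an enzyme that starts mucin-type O-glycosylation, Hsd17b1, which makes estradiol, Henmt1, which methylates piRNAs, Fnip1, a partner of folliculin, Borcs8, a subunit of the complex that positions lysosomes, Heatr5b and 2810013P06Rik. Their differences ran from -0.29 to -0.36 on the probe sets chosen. Other probe sets of the same genes, where there were any, differed by less or in the other direction. Heatr5b was at 0.23 on one, higher in 3 of 3 clones, and at -0.13 on its brightest. Fnip1 was at -0.10 and -0.13 on its brighter probe sets, Galnt3 at -0.07 and -0.09, 2810013P06Rik at -0.18 and Srgap3 at -0.01.

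By the median absolute difference, ZFP295 ranked lowest of the 19 experiments measured on this array, and by the number of probe sets at an unadjusted p below 0.05 it ranked 8th lowest. The median absolute difference over probe sets was 0.0573 for ZFP295, against 0.0610 for Snf1lk, the next smallest, and 0.109 for Sim2, the largest. The clones also had the smallest median residual SD, 0.0838 against 0.0859 to 0.135 in the others, and the median absolute difference also falls with the spread. When 1 spread was estimated over all experiments, 0 of 45100 probe sets (0%) were called for ZFP295, with 948 (2.1%) at an unadjusted p below 0.05. In that fit 3 other experiments also had 0 calls (Olig1, RIKEN-1810007M14 and Dyrk1a), whereas Erg had 5989, Sim2 5248 and Gabpa 3921. Fitted alone with pairing, Erg had 5405 calls, Sim2 412 and Gabpa 0, so that these counts depend on the spread used. Sim2 and Gabpa had large median residual SDs, 0.131 and 0.128. With array weights per experiment, in which the ZFP295 arrays had the highest weight (1.59), the count for ZFP295 became 3, namely Gabra6, Plek and a probe set with no gene assigned here. All 3 were dim, with levels of 3.51, 3.26 and 3.57. Gabra6, a GABA receptor subunit, read 3.40, 3.34 and 3.04 in induced clones, against 3.85, 3.69 and 3.72 in uninduced clones. Plek, the platelet protein pleckstrin, read 3.04, 3.02 and 3.16 in induced clones, against 3.30, 3.37 and 3.64 in uninduced clones.

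**Figure D2:**
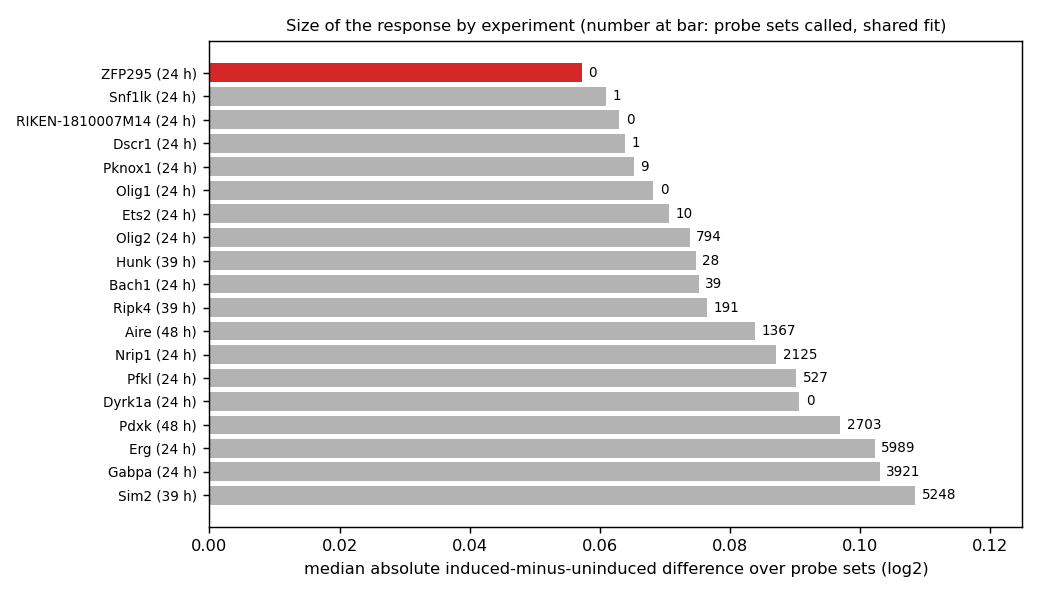
Median absolute induced-minus-uninduced difference over probe sets (log2, horizontal axis) in the 19 experiments, with the hours of induction beside each gene and the number of probe sets called in the shared fit at each bar. ZFP295, in red at the top, has the shortest bar (0.0573) and 0 calls. Fitted alone, some experiments had far fewer calls than in the shared fit (Sim2 412, Gabpa 0).

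No probe set distinguished the ZFP295 response from the mean response of the other 18 experiments, in which Tc was also withdrawn. Of these, 13 were induced for 24 hours and the others for 39 or 48 hours, so that their mean mixes durations. In this contrast 0 of 45100 probe sets (0%) passed, the smallest adjusted p was close to 1, and 1213 (2.69%) had an unadjusted p below 0.05. Among the 20 genes above, 8 were at an unadjusted p below 0.05 against the other experiments, a count that the choice of genes for small p raises and from which nothing is read. Smad6 was the lowest of them, with a difference of -0.45 ± 0.13 from the mean of the others (limma, unadjusted p = 0.000842, adjusted p close to 1). Zzz3 differed from the others by 0.48, Tmem30b by -0.43 and Actc1 by 0.35. Over 45100 probe sets, the ZFP295 differences correlated with those of single other experiments at -0.15 (Dyrk1a) to 0.10 (Ets2) and with their mean at 0.07. These experiments shared the parental line and the array, and each had its own uninduced clones. They differed in the time without Tc and, by the methods, in puromycin, of which the ZFP295 and Hunk clones were given more than the rest; the part of either in these values was not tested.

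Lists of genes by function showed no group in which a member passed. Of 731 genes written in 26 lists, 657 were measured, each by the probe set of highest level, and 35 of them (5.33%) had an unadjusted p below 0.05, against 806 of 18194 genes overall (4.43%). The lists on translation, ribosome biogenesis, protein folding, the endoplasmic reticulum, sugar metabolism and macrophages were chosen with the themes that the study named for ZFP295 known.

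**Figure D3:**
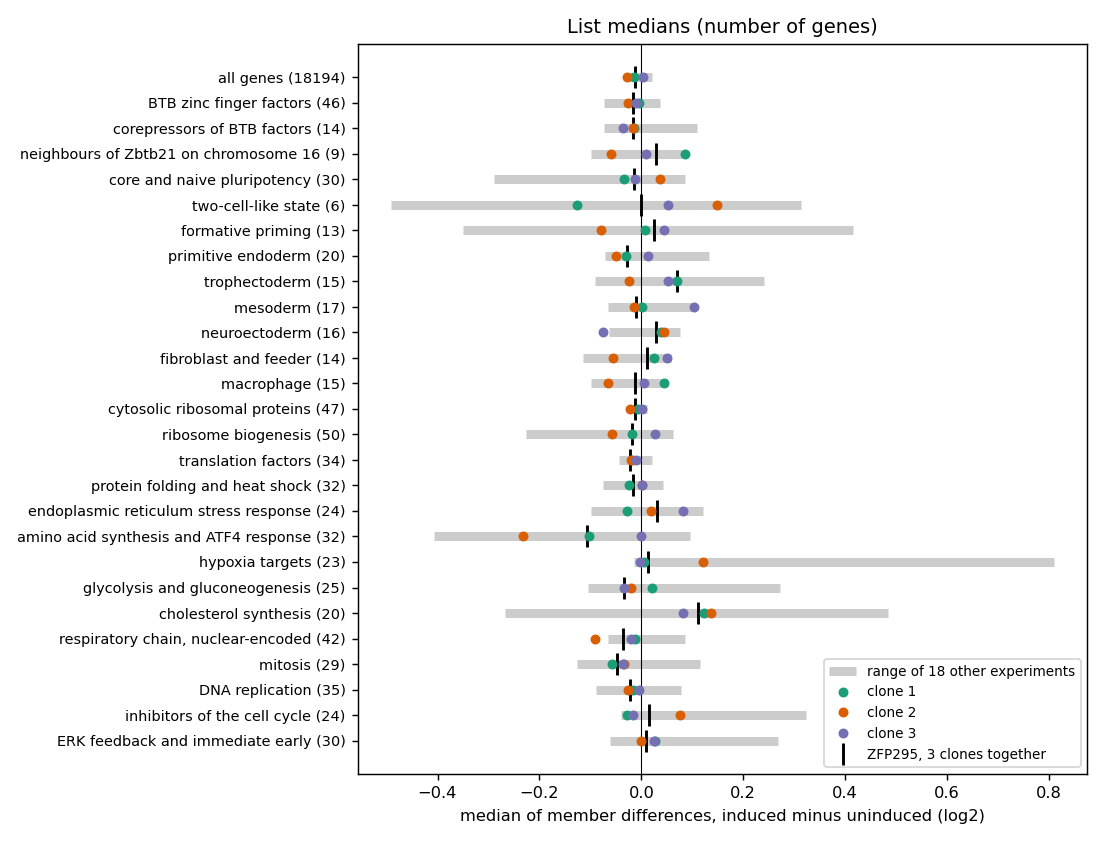
Median induced-minus-uninduced difference (log2, horizontal axis) of the members of each list, with the number of genes measured in parentheses. Dots are the 3 clones, ticks the median of the mean differences and grey bars the range of the same median over the 18 other experiments. The cholesterol synthesis list (0.11) lies farthest to the right and the amino acid and ATF4 list (-0.11) farthest to the left, both inside the grey bars.

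The family of ZFP295 and its partners stayed close to the median of all genes, -0.01. Of 46 other BTB zinc finger factors measured, 0 were higher and 2 were lower at an unadjusted p below 0.05 (background 2.05% and 2.38% of genes), and their median was -0.02. The 2 were Zbtb33, the methyl-CpG binding factor Kaiso, at -0.18 ± 0.07 (SE), and Zbtb37, dim at 3.84, at -0.20 ± 0.08. Zbtb14, the known partner, differed by 0.11 ± 0.07 and was higher in 3 of 3 clones. Of 14 corepressor genes, none was at this threshold, and their differences ran from -0.095 to 0.068. The 9 genes that neighbor Zbtb21 on chromosome 16 had a median of 0.03, and the one with the smallest p was Tmprss2, a serine protease, at 0.14 ± 0.07.

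Pluripotency genes had no member at the unadjusted threshold, and the lineage lists had 1 to 3 each (background 2.05% of genes higher and 2.38% lower). Of 30 genes of core and naive pluripotency 0 were at an unadjusted p below 0.05, and their differences ran from -0.10 (Dnmt3l) to 0.10 (Klf4). Of 13 genes of formative priming only Lef1, a Wnt effector, reached it, at 0.18 ± 0.06. Of 20 primitive endoderm genes, Gata6, a master factor of that lineage, was at -0.25 ± 0.07 and Pdgfra, a receptor of its cells, at -0.26 ± 0.07, both lower in 3 of 3 clones, which made 10% of the list, and the median of the list was -0.03. Of 15 trophectoderm genes only Ascl2 was at this threshold, on its probe set of highest level, at 0.39 ± 0.14, and the median of the list was 0.07. Among 17 mesoderm genes these were Lefty2, at 0.32, and Fgf8, dim at 3.42, at 0.24 (11.8% of the list), and among 16 neuroectoderm genes Sox3 and En2, at 0.27 and 0.20 (12.5% of the list), with Olig2, dim at 2.59, at -0.18 (6.25%). Of 15 macrophage genes, Fcer1g was at 0.20 and Cd14 at -0.19, at levels of 5.47 and 4.20. Acta2, the smooth muscle actin, was the only one of 14 fibroblast genes, at 0.18.

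Sterol synthesis was the list with the highest median. Of 20 genes, 5 were higher and 0 lower at an unadjusted p below 0.05 (background 2.05% of genes higher), and 12 were higher in 3 of 3 clones (background 10.3%). The median was 0.12 in clone 1, 0.14 in clone 2 and 0.08 in clone 3. The 5 were Insig1, which retains SREBP in the endoplasmic reticulum when sterols are plentiful, at 0.27 ± 0.07, Idi1, the isopentenyl diphosphate isomerase, at 0.26 ± 0.07, Cyp51, the lanosterol demethylase, at 0.24 ± 0.07, Hmgcs1 at 0.20 ± 0.07 and Sqle, the squalene epoxidase, at 0.16 ± 0.07. Insig1 was at 8.26 in induced and 7.99 in uninduced clones. When all probe sets of a gene were averaged, the list median became 0.08. In the other 18 experiments the same median ran from -0.27 (Gabpa) to 0.48 (Pdxk), and 10 of them lay below ZFP295, so that the value was not set apart from theirs.

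The amino acid synthesis and ATF4 list had the lowest median. Of 32 genes 0 were higher and 5 lower at an unadjusted p below 0.05 (background 2.38% of genes lower), and 15 were lower in 3 of 3 clones (background 16.5%). They were Chac1, which degrades glutathione, at -0.37 ± 0.10, Cebpb at -0.34 ± 0.12, Vldlr at -0.25 ± 0.08, Atf4 itself, the factor that drives the response to amino acid shortage, at -0.19 ± 0.07 and Nars, the asparaginyl-tRNA synthetase, at -0.16 ± 0.07. The clones differed: the list median was -0.10 in clone 1, -0.23 in clone 2 and -0.00 in clone 3, and without clone 2 it became -0.04. In the other experiments it ran from -0.41 (Pdxk) to 0.09 (Dyrk1a), with 8 of 18 below ZFP295.

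The remaining lists had medians between -0.05 and 0.03, with 0 to 3 members at the unadjusted threshold (background 2.05% of genes higher and 2.38% lower). Of 47 cytosolic ribosomal protein genes measured, of 81 written, 1 was higher (Rps25, 0.17 ± 0.07) and 0 were lower. Of 50 ribosome biogenesis genes and 34 translation factors none was at the threshold. Of 24 genes of the endoplasmic reticulum stress response 2 were higher (8.33%), Syvn1, a ubiquitin ligase of protein quality control, at 0.20 ± 0.07 and Hyou1, a chaperone, at 0.16 ± 0.07. Among 32 chaperone and heat shock genes only Cryab was, at 0.29 ± 0.08. Of 23 hypoxia targets Egln3 and Bhlhe40 were higher, at 0.35 and 0.24 (8.70%), and Vegfa lower, at -0.17 (4.35%). The hypoxia median was 0.01 for ZFP295 and up to 0.81 (Pdxk) in other experiments, of which 16 of 18 lay above ZFP295. Of 25 glycolysis and gluconeogenesis genes Pfkfb3 was higher, at 0.27, and Fbp1 lower, at -0.17. The mitosis list, with 0 of 29 genes at the threshold, was lower in 3 of 3 clones for 13 genes (background 16.5%) and had a median of -0.05, between -0.06 and -0.04 in the single clones. The respiratory chain list likewise had 0 of 42 genes at the threshold and 14 lower in 3 of 3 clones. The mitosis, glycolysis and cytosolic ribosomal protein medians each lay below those of 17 of 18 other experiments. The median of all genes lay below that of 16 of them. Of 35 DNA replication genes and 24 inhibitors of the cell cycle none was at the threshold. Among 30 ERK feedback and immediate early genes Egr1 was at -0.34 ± 0.09 and Fosb, dim at 3.15, at 0.19.

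The largest differences among the 6 arrays were between clones and not between states. This comparison was added after clone 3 had been seen to stand apart. It used the 2 arrays of each clone as its replicates, with the state as a term in limma, so that its p-values measure the spread between those 2 arrays and compare these clones only. Clones 1 and 2 differed at an adjusted p below 0.05 in 422 probe sets (0.936%), a count that became 1638 with trend and robust variances and 1095 among probe sets above the median level. Clone 3 differed from clone 1 in 6841 probe sets (15.2%), of which 3655 were higher in clone 3, and from clone 2 in 5746 (12.7%), of which 2990 were higher in clone 3. At 1 or more log2 units there were 726 and 619 of these, and 55 between clones 1 and 2. Over all probe sets, the difference of clone 3 from clone 1 in the induced arrays correlated with that in the uninduced arrays at 0.80, and that of clone 3 from clone 2 at 0.74, against 0.44 for clone 1 from clone 2. Array processing day was not given in the sources used here, so that clone and any such batch cannot be told apart.

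Transcripts of 3 Y-linked genes, Eif2s3y, Uty and Uba1y, were far lower in clone 3 in both states. Eif2s3y, a translation initiation subunit, read 3.02 in induced and 2.38 in uninduced cells of clone 3. In clones 1 and 2 it read 9.09 and 8.91 in induced cells, and 8.93 and 8.72 in uninduced cells. Uty, a histone demethylase relative, read 2.26 in induced and 3.14 in uninduced cells of clone 3, whereas clones 1 and 2 lay between 7.26 and 7.79. Uba1y, a ubiquitin-activating enzyme, was at 3.25 in induced and 3.08 in uninduced cells of clone 3, at 7.05 and 7.07 in clone 2 and at 8.57 and 8.59 in clone 1. A second probe set of Uba1y was at 4.75 in induced and 5.04 in uninduced cells of clone 3. The Y-linked Kdm5d and Zfy2 were below 4 in all 6 arrays. Other Y-linked probe sets were nearly as high in clone 3 as in the others: the brighter one of Sry averaged 5.65 in clone 3, 5.91 in clone 1 and 6.04 in clone 2, and that of Usp9y 4.57, 4.81 and 4.96 in clones 3, 1 and 2. The dimmer one of Sry averaged 2.83, 2.78 and 2.76 in clones 3, 1 and 2, and that of Usp9y lay below the median level of all probe sets. These values therefore do not show that Sry or Usp9y was transcribed in any clone. The X-linked relatives Eif2s3x and Kdm6a were expressed in all 3 clones, at 10.43 to 10.97 on the first probe set of Eif2s3x and 8.75 to 9.22 on that of Kdm6a.

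**Figure D4:**
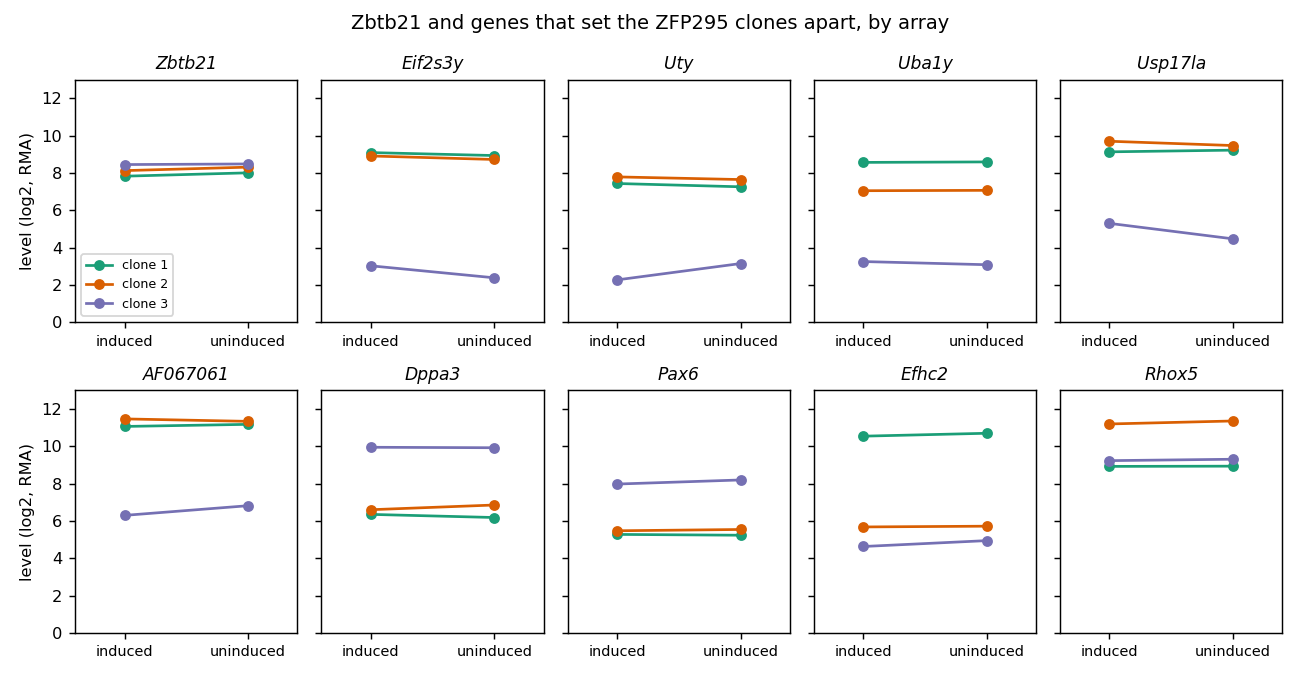
Levels (log2, vertical axis) of Zbtb21 and of 9 genes that set the clones apart, in induced (left) and uninduced (right) arrays, with each clone joined by a line. The lines run nearly flat: clone 3 lies far below the others for Eif2s3y, Uty, Uba1y, Usp17la and AF067061 and above them for Dppa3 and Pax6, clone 1 lies above for Efhc2 and clone 2 for Rhox5.

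A second group that was lower in clone 3 comprised genes of the two-cell-like state, a rare condition of mES cells in which transcripts of the early embryo appear. All 6 measured members, of 14 written, of this list were lower in clone 3 than in both other clones (background 5.69% of genes), and the median difference of clone 3 was -1.99 from clone 1 and -2.27 from clone 2. Usp17la, a deubiquitinase, read 5.30 in induced cells of clone 3, and 4.47 in uninduced cells, against 9.13 and 9.70 in induced and 9.22 and 9.47 in uninduced cells of clones 1 and 2. Arg2, an arginase, read 4.15 in induced and 3.67 in uninduced cells of clone 3, against 6.57 to 7.02 in the other 4 arrays. Tcstv1 and Tcstv3, genes of that state with no settled role, were at 4.19 and 3.08 in induced cells of clone 3, and at 4.23 and 3.09 in its uninduced cells. AF067061 and Gm20767, further transcripts low in clone 3, had gaps of at least 4.57 and 5.45. Such families have near-identical copies, so that a probe set can report several of them.

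Among genes higher in clone 3, Dppa3 and Pax6 had the widest gaps to both other clones. Over all, 2132 probe sets were higher (4.73%) and 2048 lower (4.54%) in clone 3 than in both others. Dppa3, which protects the maternal genome from demethylation, read 9.95 in induced and 9.93 in uninduced cells of clone 3, against 6.35 and 6.60 in induced and 6.18 and 6.85 in uninduced cells of clones 1 and 2. Pax6, a master regulator of eye and forebrain, read 7.98 and 8.20 in clone 3, against 5.23 to 5.54 in the other 4 arrays, on 1 of its 5 probe sets. On another 2 of them clone 3 was also higher, by 2.29 and 0.87 than clone 1 and by 2.42 and 0.85 than clone 2. On the remaining 2 it differed from clone 1 by 0.12 and -0.08. Ccnd2, a D-type cyclin, Slc40a1, the iron exporter ferroportin, Tpm1, a tropomyosin, Nexn, an actin-binding protein, and Tfap2c, a factor of the germ and trophoblast lineages, were higher by at least 2.24, 2.38, 1.83, 2.41 and 1.61. In the lists, 7 of 20 sterol synthesis genes were higher in clone 3 than in both others and 0 lower (background 6.58% and 5.69% of genes), with Lss at 9.34 in clone 3, 8.73 in clone 1 and 8.74 in clone 2. Of 20 primitive endoderm genes 0 were higher and 8 lower, among them Sox7, Sox17, Pdgfra, Cubn and the basement membrane genes Col4a1, Col4a2, Lamc1 and Sparc. Col4a1 averaged 5.95 in clone 3, 8.49 in clone 1 and 7.42 in clone 2. Of 30 pluripotency genes 5 were higher (Dppa3, Klf2, Klf4, Nr5a2 and Lin28a) and 7 lower (Tbx3, Klf5, Nr0b1, Tdgf1, Fgf4, Dnmt3l and Rif1), whereas Pou5f1, Nanog and Sox2 were not set apart.

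Some of the differences between clones lay in runs of neighboring genes. Runs were made of at least 25 measured genes with a level above the median, in genome order. Of 457 runs, 7 had a median difference between clones 3 and 1 of 0.3 or more and 7 of -0.3 or less, and between clones 3 and 2 these were 5 and 7. Clones 1 and 2 differed so in 2 and 2 runs, and induced and uninduced cells in none, with run medians between -0.07 and 0.03. On chromosome 15, genes from the middle of the chromosome onward were lower in clone 3, with the strongest run from Sult4a1 to Tbc1d22a at -0.47 against clone 1 and -0.60 against clone 2, and 22 of its 25 genes lower in clone 3 in either comparison. Of 1036 genes lower in clone 3 than in both others, 145 were on chromosome 15, which holds 4.01% of all genes. On chromosome 14, 2 adjacent runs from Bin3 to Kbtbd6 were at -0.70 and -0.77 against clone 1 and at -0.72 and -0.78 against clone 2. On chromosome 6, 6 runs, from Tcaf1 to Tmem176a, from Wipf3 to Gng12 and from Nat8f4 to Ssu2, were higher in clone 3, by 0.33 to 0.52 against clone 1, and these 6 and the chromosome 12 run lower in clone 1, described next, make up the 7. The 2 runs on chromosome 14 were at -0.74 and -0.81 in induced and at -0.65 and -0.81 in uninduced arrays against clone 1. DNA copy number was not measured, and by the methods 1 clone per gene was karyotyped.

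**Figure D5:**
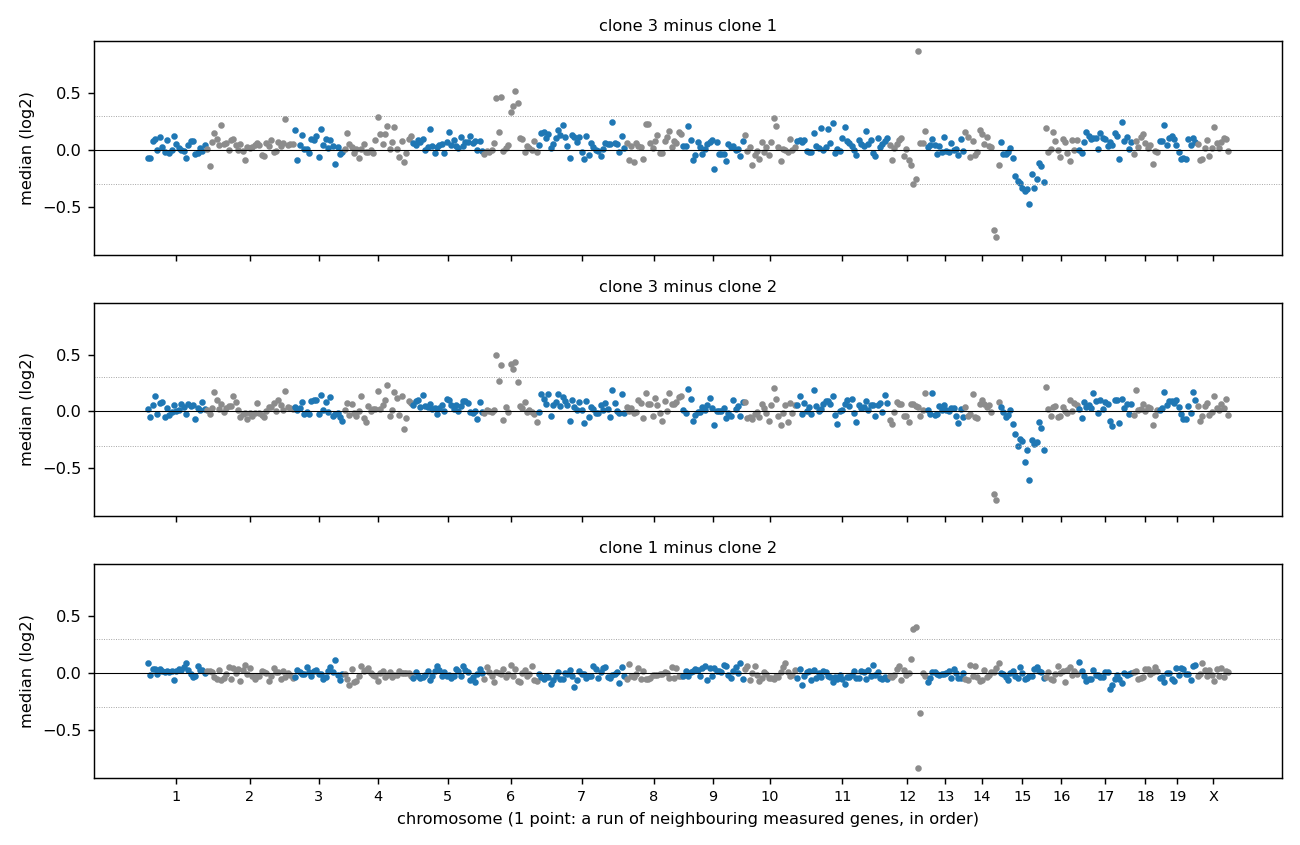
Median difference between clones (log2, vertical axis) in runs of at least 25 neighboring measured genes with a level above the median, in genome order by chromosome (horizontal axis). Colors alternate by chromosome, and dotted lines are at 0.3 and -0.3. Against both other clones, clone 3 is lower over much of chromosome 15 and toward the end of chromosome 14, where the runs reach -0.77 and -0.78, and higher in parts of chromosome 6, while the runs that differ between clones 1 and 2 lie on chromosome 12.

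Clones 1 and 2 differed from each other in 4 runs, all on chromosome 12. There, the run from Ptpn21 to Btbd7 was at -0.84 in clone 1 relative to clone 2, with 24 of 25 genes lower in clone 1, and that from Cox8c to Evl was at -0.35. The 2 runs before them, from Abcd4 to Spata7, were at 0.38 and 0.41. Dicer1, which cuts precursor miRNAs, is also on this chromosome and read 8.05 and 8.26 in clone 1, induced and uninduced, against 9.14 and 9.37 in clone 2 and 9.58 and 9.44 in clone 3. Of 116 genes lower in clone 1 than in both others (0.638% of genes), 37 (31.9%) were on chromosome 12, which holds 3.45% of all genes. There were 71 genes higher in clone 1 (0.39%), 40 higher in clone 2 (0.22%) and 28 lower in clone 2 (0.154%). Efhc2, an X-linked gene of a ciliary microtubule protein, was high in clone 1 alone, at 10.55 and 10.70, against 5.68 and 5.72 in clone 2 and 4.63 and 4.94 in clone 3, each induced and uninduced. Rhox5, an X-linked homeobox gene, was high in clone 2, at 11.20 and 11.36, against 8.93 and 8.94 in clone 1 and 9.23 and 9.31 in clone 3. Igf2bp3, which binds mRNA, was lowest in clone 2. On its dimmest probe set it read 4.48 and 4.16 there, against 5.93 and 5.78 in clone 1 and 6.77 and 6.84 in clone 3. On its brightest probe set the gap was small, with averages of 8.11 in clone 2, 8.34 in clone 1 and 8.70 in clone 3. There clones 1 and 2 did not differ at the adjusted threshold. None of these genes differed between states by as much as it differed between clones.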

How the data were processed

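Total RNA of 3 induced and 3 uninduced ZFP295 clones was hybridized to Mouse430_2 arrays. The authors deposited log2 intensities made with RMA in the affy package, versions not given in the sources used here. Array medians were 5.23 to 5.26 for ZFP295 and differed more between experiments, so that tests used differences within an experiment, and levels across experiments, given only among the closing observations, are rough. Read depth does not apply to arrays, and the number of clones limits the precision. Of 45101 probe sets, 34958 had 1 gene symbol, 932 several and 9211 none, symbols being updated to RefSeq (GRCm38.p6). The comparison was fitted with limma 3.58.1 (R 4.3.3) with the clone as a block, since deviations from the group means of same-numbered arrays correlated at 0.69, 0.57 and 0.80, with Benjamini-Hochberg adjustment at 0.05. A fit over all experiments gave the contrast with the other experiments, on 45100 probe sets. Named genes were Zbtb21, the 10 per direction with the smallest unadjusted p, and up to 4 members per list with the smallest unadjusted p. Zbtb14, the fifth member of the sterol and ATF4 lists and the genes of the clone comparison were chosen after their values were seen. Scripts were tested on simulated data. Members and lists were chosen with earlier results of these data known. The Runx1 arrays, of another type, were not used.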

Additional observations from a re-analysis of the deposited data

How the results depend on the processing

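The count of 0 calls held under all alternatives except those given here. The methods' t-test gave 1 call, and array weights per experiment gave 3 in the fit with a shared spread. With each clone left out the counts of calls stayed at 0 in all 3 comparisons, with the smallest adjusted p between 0.147 and 0.997 in the paired fit. The number of listed genes at an unadjusted p below 0.05 was 35, and it ran from 22 to 40 without single clones, lowest without clone 2. No replicate block, that is the fit without pairing, gave 0 calls and 690 probe sets at an unadjusted p below 0.05, against 2372 with it, and it changed no other call. The Zbtb21 probe set of highest level ran from -0.18 to -0.11 without single clones, and the third probe set, -0.06 in all clones, ran from -0.15 to 0.032, positive without clone 3. Between clones 1 and 2, the count of 422 became 1638 with trend and robust variances and 1095 with probe sets above the median level, both chosen after seeing the data. The cause of these changes was not tested.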

Other observations

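Y-linked transcripts were near background in other clones of the series as well, on levels that come from experiments with different array medians and are thus only roughly comparable. Eif2s3y, Uty and Uba1y were all below 4 in 5 of 57 clones, namely ZFP295 clone 3, Hunk clone 1, Nrip1 clone 3, Pknox1 clone 1 and Erg clone 1, and all above 4 in 47. In the other 5 clones, 1 or 2 of these 3 genes were below 4. Usp17la did not follow these 3 genes. ZFP295 clone 3 had the lowest level of all 57 clones, 4.88. The other 4 clones with all 3 genes below 4 lay between 7.10 and 7.39, close to the median of 7.20. ZFP295 clone 2 had the highest level, 9.59. Dppa3 was highest in ZFP295 clone 3, at 9.94 against a median of 7.29. Efhc2 was highest in ZFP295 clone 1, at 10.62, and was also at 10.34 in Olig2 clone 2, 10.26 in Sim2 clone 3, 9.98 in Pknox1 clone 1 and 9.47 in Pfkl clone 2, against a median of 5.87.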
